A study of Mus musculus with 16 samples.

Results

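The genes described here are those of the postsynaptic side of the neuromuscular junction, the contact at which a motor nerve excites a skeletal muscle fibre. The list held 10 genes: the muscle acetylcholine receptor subunits Chrna1, Chrnb1, Chrnd, Chrne and Chrng, the clustering genes Musk, Lrp4 and Rapsn, and the esterase genes Colq and Ache. Members were every probe, controls left out, whose gene name in the scanner output was on that list. This gave 13 probes for 9 of the 10 genes, out of 41174 probes on the array. No probe was named for Colq, the collagen tail that anchors acetylcholinesterase in the synaptic cleft, so it was not analysed here.

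Gastrocnemius muscle, a calf muscle made mostly of fast fibres, was taken from male C57BL/6N mice that were 3 months old when the diets began. Both groups, of 8 mice each, ate for 8 weeks a corn-oil-based high-fat diet with about 35% of its weight as lipid and 10 mg per kg of rosiglitazone, an antidiabetic drug that activates PPARγ. The cHF+ROSI mice received that diet as it was. For the cHF+F+ROSI mice, 15% of the dietary lipids had been exchanged for a concentrate of n-3 LC-PUFA, the long-chain omega-3 fatty acids of fish oil. All mice went 10 h without food in the light phase, were then given Chow overnight and were killed the next morning. The comparison therefore asks what the n-3 fatty acids added to rosiglitazone in muscle, with no untreated or rosiglitazone-free group in it.

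At the neuromuscular junction, the nerve ending releases acetylcholine, which opens a pentameric receptor channel in the fibre membrane. The adult channel carries the ε subunit, whereas the fetal channel, which returns after loss of the nerve, carries γ in its place. The nerve also releases agrin, which binds LRP4 and thereby activates the receptor kinase MuSK, and rapsyn then ties the receptors into a dense cluster under the nerve ending. Only the few nuclei below that contact normally transcribe most of these genes, so in whole muscle their mRNA comes from a small part of each fibre. In such bulk RNA, fewer cells of a type and less RNA per cell cannot be told apart.

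Each array compared the Cy5-labelled RNA of 1 mouse with a Cy3-labelled common pool of muscle RNA, and values are log2 ratios to that pool. The paper made the pool from equal molar amounts of its Cy3-labelled samples, and which diets these covered for the present arrays is not clear. A probe was kept where its mean signal was at least 2 times the local background in both channels, which held for 19398 probes. Of the member probes, 8 probes of 7 genes were kept: both Chrna1 probes, 1 probe each of Chrne and Lrp4, and those of Chrnb1, Musk, Rapsn and Ache. The other 5 were too weak in the reference pool. Values of Chrnd, both Chrng probes and the second Chrne probe are therefore given from the fit without the filter. The second Lrp4 probe was well above background in none of the 16 Cy5 signals, so no difference is given for it. Where a gene had 2 probes, they are called here the brighter and the dimmer by signal over background. The brightness of different probes was not compared as expression.

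**Figure D1:**
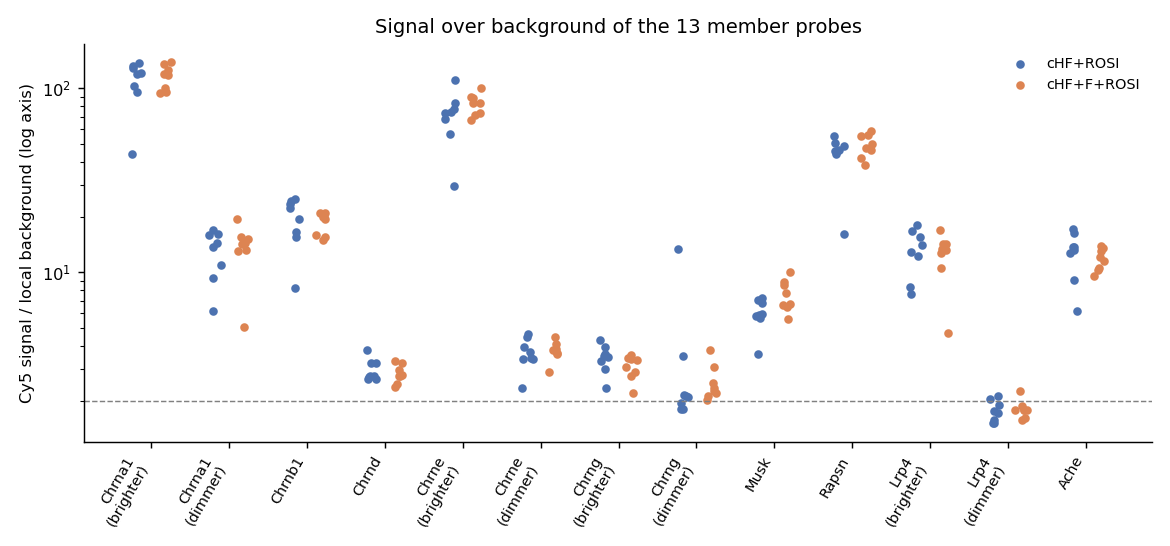
Cy5 signal over local background (log axis) of the 13 member probes, 1 point per array, with the 2 groups side by side and the filter's limit of 2 as a dashed line. Mean signals run from 1.79 times the background for the dimmer Lrp4 probe to 113 times for the brighter Chrna1 probe, and the lowest point of several probes is the dimmest array, cHF+ROSI replicate 1.

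The 4 slides each carried 2 arrays of either group, so slide and diet were balanced, but cHF+F+ROSI always lay at positions 2 and 4 of a slide and cHF+ROSI at positions 1 and 3, and position and diet cannot be told apart. The median Cy5 signal over background ran from 2.98 to 3.46 over the cHF+F+ROSI arrays and from 2.33 to 3.64 over the cHF+ROSI arrays. The muscle identity of the samples was clear: all 8 fibre genes looked at, among them Ckm and Myh4, were well above background in every mouse. Of 10 genes of motor neurons and axons, 7 were well above background in no mouse, including Chat, which makes acetylcholine. Most of the 9 slow fibre genes varied widely between mice, but Myl3 and Tpm3 did not. The mean log2 ratio of the 9 was -2.35 in cHF+F+ROSI replicate 2, against -0.60 in the next lowest mouse of that group.

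The promoters of 6 member genes are in RefSeq's GRCm38.p6 assembly table used here (Chrna1, Chrnb1, Chrne, Chrng, Musk and Ache). Those of 3 receptor subunit genes are shown because the receptor subunits are known to share E-boxes, the sites of MyoD and myogenin, while the N-box is known for its part in expression restricted to the synapse. Each is the 250 bases before the transcription start, 5′ to 3′ on the coding strand, with E-boxes (CANNTG) and the N-box (CCGGAA on either strand) in capitals.
Chrna1, chr2:73580339-73580588, minus strand: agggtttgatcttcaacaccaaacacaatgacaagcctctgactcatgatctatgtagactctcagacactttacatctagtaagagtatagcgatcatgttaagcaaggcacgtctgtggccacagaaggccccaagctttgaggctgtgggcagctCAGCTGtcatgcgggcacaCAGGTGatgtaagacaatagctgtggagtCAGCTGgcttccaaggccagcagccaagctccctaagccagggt
Chrne, chr11:70619195-70619444, minus strand: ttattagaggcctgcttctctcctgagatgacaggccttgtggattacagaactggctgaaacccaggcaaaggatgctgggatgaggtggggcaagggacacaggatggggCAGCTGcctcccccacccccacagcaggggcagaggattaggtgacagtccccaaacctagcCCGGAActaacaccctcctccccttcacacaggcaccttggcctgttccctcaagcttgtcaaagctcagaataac
Chrng, chr1:87205561-87205810, plus strand: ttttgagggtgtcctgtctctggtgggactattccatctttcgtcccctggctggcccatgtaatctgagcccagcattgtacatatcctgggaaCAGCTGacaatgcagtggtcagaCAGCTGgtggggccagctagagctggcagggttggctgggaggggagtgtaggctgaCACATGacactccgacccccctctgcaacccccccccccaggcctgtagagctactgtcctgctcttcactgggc
The Chrna1 stretch held 3 E-boxes and that of Chrng also 3, of which 2 in each had the core CAGCTG. The Chrne stretch held 1 E-box, with that core, and 1 N-box that began 76 bases before the start. An E-box stood in all 6 member promoters and in 66.2% of all 32851 promoters of that length. The core CAGCTG stood in 4 of the 6 and in 13% of all, and the N-box in 1 of the 6 and in 12% of all. These matches describe letters only and were not tied to the array values.

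No member differed between the diets at an adjusted p of 0.05, which 16 probes, or 0.0825% of those tested, passed. The 8 kept probes were split evenly, 4 higher and 4 lower in cHF+F+ROSI, with a median log2 difference of 0.03 against 0.00 over all kept probes. At an unadjusted p of up to 0.05, 2 of the 8 probes were called, both higher in cHF+F+ROSI: the dimmer Chrna1 probe and Musk. Over all probes tested, 10.4% reached that p in either direction, 5.38% upwards and 4.98% downwards. The smallest adjusted p among the members was 0.221 (limma, Benjamini-Hochberg). The 95% intervals of the 8 differences all lay between a fold of 0.842 and one of 1.29. For no member were the 8 mice of one group all above the 8 of the other, which held for 31 of all kept probes, or 0.16%.

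**Figure D2:**
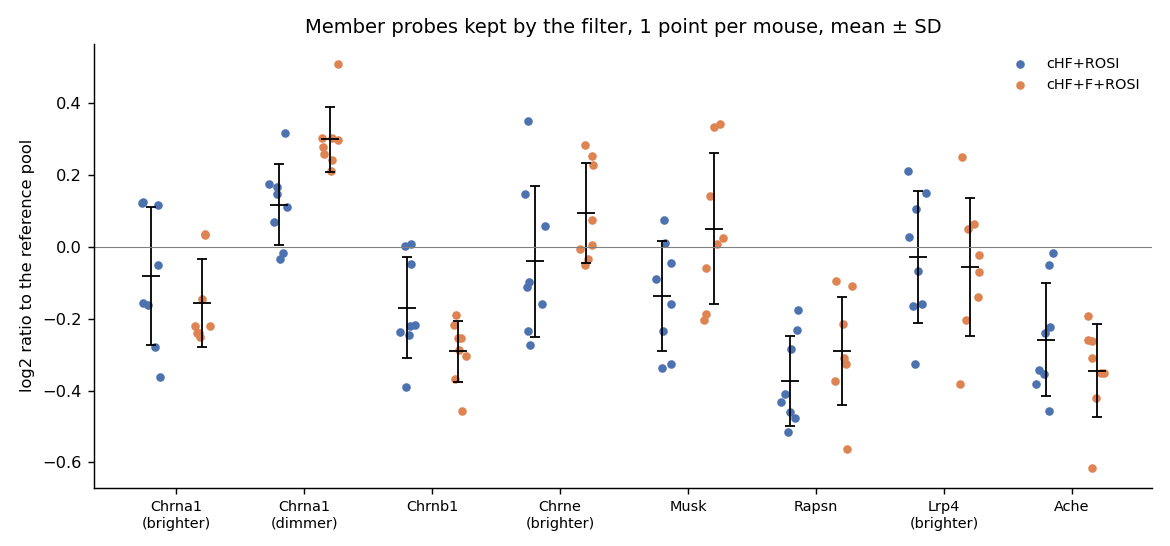
Log2 ratio to the reference pool of the 8 kept member probes, 1 point per mouse, with the mean ± SD of each group of 8 as bars. The groups overlap for every probe, and the dimmer Chrna1 probe is the one whose cHF+F+ROSI mice all lie above the cHF+ROSI mean.

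Chrna1 encodes the α subunit, which carries most of the acetylcholine binding site. Its probes lie on chromosome 2 of the mm8 assembly, the dimmer at 73364172-73364231 and the brighter at 73366894-73366953, with 2663 bases between them. For the brighter probe, the log2 ratio ran from -0.25 to 0.04 in cHF+F+ROSI, with a median of -0.22. In cHF+ROSI it ran from -0.36 to 0.12 with a median of -0.10. The cHF+F+ROSI mice lay inside the range of the other group, and the log2 difference was -0.08 ± 0.08 (SE), with an adjusted p of 0.763. The dimmer probe of the same gene ran the other way. Its log2 ratio lay between 0.21 and 0.51 in cHF+F+ROSI, with a median of 0.29. In cHF+ROSI it lay between -0.03 and 0.32, with a median of 0.13. All 8 cHF+F+ROSI mice were above the cHF+ROSI mean, although cHF+ROSI replicate 3 was higher than 7 of them. The log2 difference was 0.18 ± 0.05 (SE), or 1.13-fold with a 95% interval of 1.05 to 1.23. Its limma p was 0.00348 before and 0.221 after adjustment, and an exact two-sided permutation test over the 16 mice gave 0.00218. Within the 4 slides the difference was 0.17, 0.17, 0.23 and 0.16.

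Because both probes are named for one transcript, their difference within each array was also compared. The dimmer probe minus the brighter was 0.46 ± 0.11 (SD, n = 8) in cHF+F+ROSI and 0.20 ± 0.16 (SD, n = 8) in cHF+ROSI, on the log2 scale. These differed by 0.26, with p = 0.00295 in an exact two-sided permutation test, which was run after the disagreement had been seen. Across the 16 mice, with group means removed, the probes correlated at r = 0.53. In the mouse channel on its own, Cy5, the dimmer probe's log2 difference was 0.05, with an unadjusted limma p of 0.75. The Cy3 pool on the same probe was 0.11 lower in log2 intensity on the cHF+F+ROSI arrays, with an unadjusted limma p of 0.212. The brighter probe differed by 0.01 in Cy5 alone, with an unadjusted limma p of 0.889. On that probe the Cy3 pool was 0.08 higher on the cHF+F+ROSI arrays, with an unadjusted limma p of 0.0756. In the table of normalized values that the authors deposited, the dimmer probe's log2 difference was 0.15, with an unadjusted p of 0.139. As ratios to the pool, the 2 probes thus give no single direction for Chrna1.

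**Figure D3:**
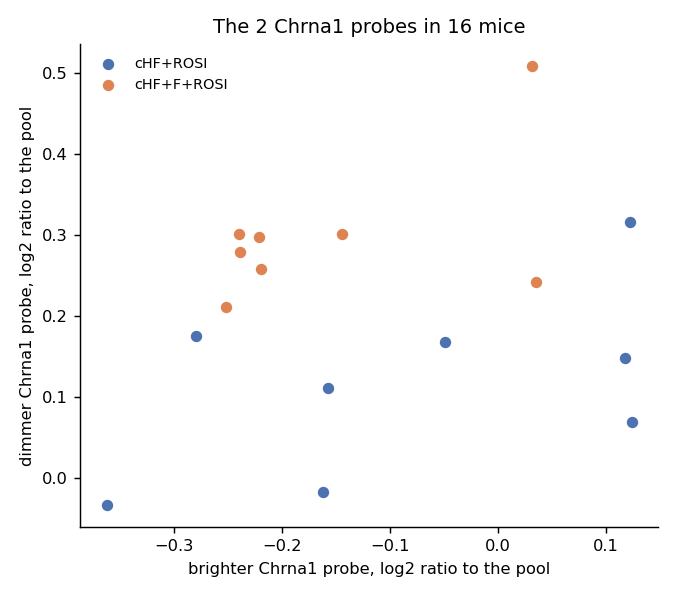
The brighter Chrna1 probe (x axis) against the dimmer (y axis) in the 16 mice, both as log2 ratios to the pool, coloured by diet. The cHF+F+ROSI mice sit higher on the y axis and not further right, with replicate 5 at 0.51 apart from the rest of its group.

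Chrnb1, the β subunit, which contacts rapsyn, was measured by 1 probe annotated to chr11:69601367-69601935 (mm8). Its log2 ratio ran from -0.46 to -0.19 in cHF+F+ROSI, with a median of -0.27. The range in cHF+ROSI was -0.39 to 0.01, with a median of -0.22. All 8 cHF+F+ROSI mice were below the cHF+ROSI mean, while 3 cHF+ROSI mice were above every cHF+F+ROSI mouse and the other 5 lay within that group's range. The log2 difference was -0.12 ± 0.06 (SE), a fold of 0.919, with an unadjusted p of 0.0563 and an adjusted p of 0.494. Within the slides it was -0.04, -0.36, 0.02 and -0.10.

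Chrnd, the δ subunit, was well above background in Cy5 in all 16 mice (probe at chr1:89030049-89030108, mm8) but only 1.83 times the background in the pool. Its log2 ratio ran from -0.24 to 0.08 in cHF+F+ROSI and from -0.20 to 0.21 in cHF+ROSI, with medians of -0.08 and 0.05. The log2 difference was -0.11 ± 0.06 (SE), with an unadjusted p of 0.0891 and an adjusted p of 0.704 over the 41174 probes of the fit without the filter. Without the filter, 7.85% of all probes reached an unadjusted p of up to 0.05, and the members at that p were 2 of 13, with none at an adjusted p of 0.05, which 0.0486% of all probes passed.

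Chrne encodes the ε subunit of the adult receptor. The brighter of its probes lies at chr11:70431084-70431143 (mm8), and its log2 ratio ran from -0.05 to 0.28 in cHF+F+ROSI and from -0.27 to 0.35 in cHF+ROSI. The medians were 0.04 and -0.11, and 7 of 8 cHF+F+ROSI mice were above the cHF+ROSI mean. The log2 difference was 0.13 ± 0.08 (SE), with an adjusted p of 0.595, and it was 0.08 without cHF+ROSI replicate 1 and cHF+F+ROSI replicate 2, the arrays that stood apart. In Cy5 alone it was 0.24, with an unadjusted p of 0.0243 and an adjusted p of 0.58. The dimmer probe, at chr11:70434610-70434669, gave a log2 difference of 0.04 ± 0.05 (SE) and an adjusted p of 0.879. Both Chrne probes were higher in cHF+F+ROSI, and the 95% interval of each included 0.

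Chrng, the fetal γ subunit, stood close to background. Its brighter probe (chr1:89040668-89040949, mm8) was well above background in Cy5 in 15 of the 16 mice and differed by -0.03 ± 0.06 (SE) on the log2 scale, with an adjusted p of 0.938. Its dimmer probe (chr1:89042737-89042796) was well above background in 5 cHF+F+ROSI mice and 3 cHF+ROSI mice. On the dimmer probe cHF+ROSI replicate 4 had a log2 ratio of 1.41, with a Cy5 signal 13.4 times the background, and replicate 3, on the same slide, had 0.55. The cHF+ROSI median was -0.08 and that of cHF+F+ROSI, whose highest mouse was at 0.29, was -0.10. The brighter probe had 0.03 in replicate 4 and 0.01 in replicate 3, so the high values were seen on 1 of the 2 probes. The dimmer probe's log2 difference was -0.17 ± 0.19 (SE) with all mice and 0.01 without replicate 4.

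Musk encodes the receptor tyrosine kinase that organises the postsynaptic membrane, and its probe lies at chr4:58467392-58467451 (mm8). Its log2 ratio ran from -0.20 to 0.34 in cHF+F+ROSI, with a median of 0.02. In cHF+ROSI it ran from -0.34 to 0.08, with a median of -0.12. Replicates 6 and 8 of cHF+F+ROSI, at 0.34 and 0.33, and replicate 3, at 0.14, were above every cHF+ROSI mouse, while 2 mice of that group lay below the cHF+ROSI mean. The log2 difference was 0.19 ± 0.09 (SE), or 1.14-fold, with a limma p of 0.044 before and 0.469 after adjustment. The exact two-sided permutation test gave 0.0611. Within the slides the difference was 0.27, -0.17, 0.35 and 0.31, so 1 slide ran against the other 3. With slide as a block the unadjusted p was 0.0617. In Cy5 alone the log2 difference was 0.29, while the Cy3 pool differed by 0.02.

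Lrp4 encodes the agrin receptor. Its brighter probe (chr2:91314514-91314573, mm8) had log2 ratios from -0.38 to 0.25 in cHF+F+ROSI and from -0.32 to 0.21 in cHF+ROSI, with medians of -0.05 and -0.02. The groups covered almost the same range, and the difference was -0.03 ± 0.09 (SE), with an adjusted p of 0.94. Its sign was not stable, being 0.02 without cHF+F+ROSI replicate 5 and -0.24 in Cy5 alone.

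Rapsn encodes rapsyn, the scaffold that holds the receptors together, and its probe is annotated to chr2:90844530-90845684 (mm8). Its log2 ratio ran from -0.56 to -0.10 in cHF+F+ROSI, with a median of -0.32, and from -0.51 to -0.18 in cHF+ROSI, with a median of -0.42. In cHF+F+ROSI, 7 of 8 mice were above the cHF+ROSI mean, yet the lowest mouse of all was in that group. The log2 difference was 0.08 ± 0.07 (SE), with an adjusted p of 0.691.

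Ache encodes acetylcholinesterase, which ends the signal by splitting acetylcholine, and its probe lies at chr5:137523938-137523997 (mm8). Its log2 ratio ran from -0.61 to -0.19 in cHF+F+ROSI, with a median of -0.33, and from -0.46 to -0.02 in cHF+ROSI, with a median of -0.29. In cHF+F+ROSI, 7 of 8 mice lay below the cHF+ROSI mean. The difference was -0.09 ± 0.07 (SE) on the log2 scale, with an adjusted p of 0.689, and it was negative on all 4 slides, from -0.13 to -0.05.

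**Figure D4:**
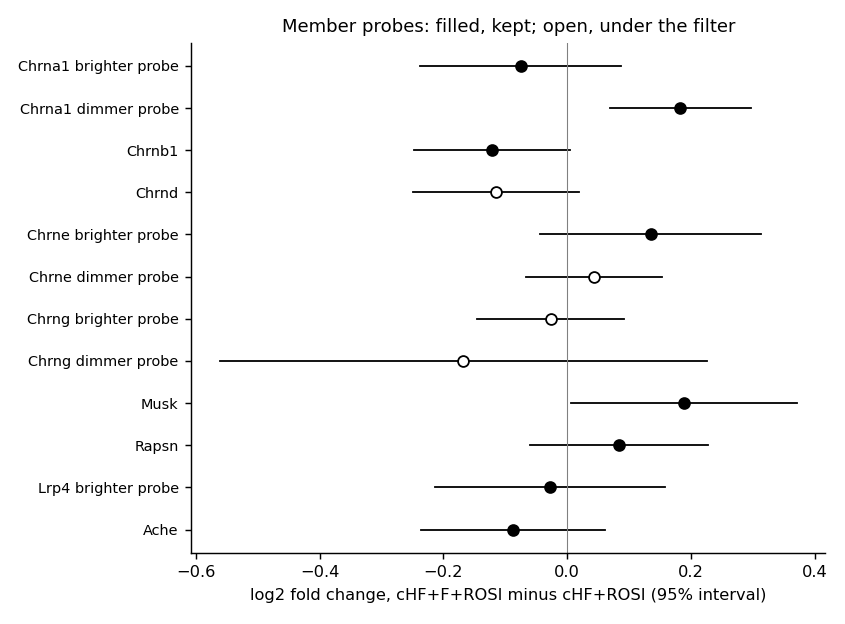
Log2 fold change, cHF+F+ROSI minus cHF+ROSI, of the 12 member probes for which a difference is given, with 95% intervals, and open points for the 4 under the filter. The intervals of the dimmer Chrna1 probe (0.07 to 0.30) and of Musk (0.01 to 0.37) lie above 0, before any adjustment, and all others include it.

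The pool channel was tested on its own, since it should not carry the diet. On quantile-normalized log2 Cy3 intensities, none of 19398 probes passed an adjusted p of 0.05 and 3.56% reached an unadjusted p of up to 0.05 (limma). None of the 8 kept members was among these. Their Cy3 differences ran from -0.14 for Lrp4 and -0.11 for the dimmer Chrna1 probe to 0.08 for the brighter Chrna1 and Chrne probes.

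**Figure D5:**
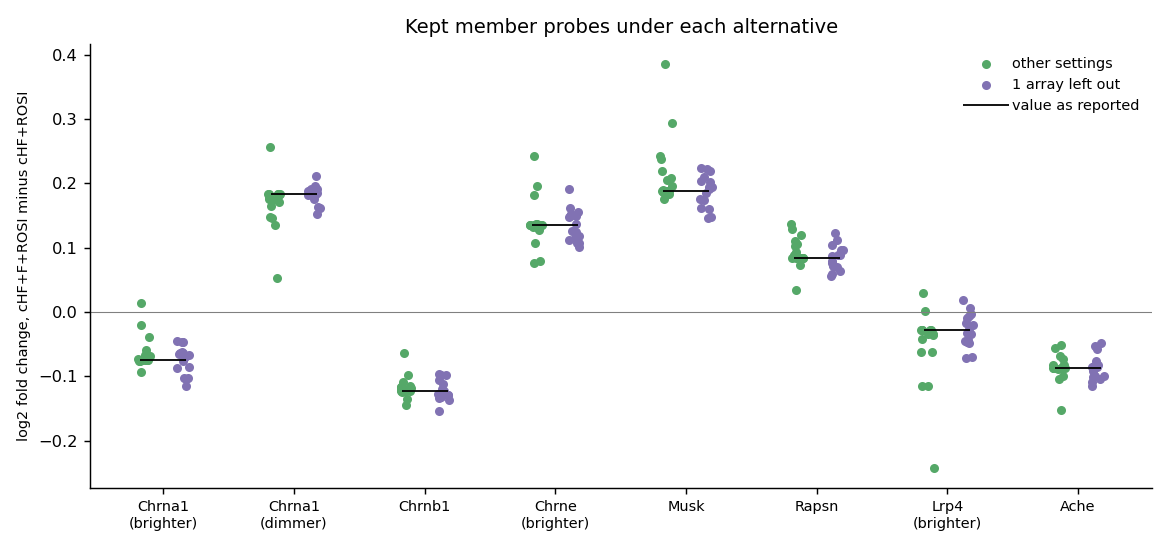
Log2 fold change of each kept member probe under the other processing settings (green), with 1 array left out at a time (purple) and as reported (black bar). Musk stays between 0.15 and 0.39 and the dimmer Chrna1 probe between 0.05 and 0.26, while Lrp4 falls on both sides of 0.

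A wider list of 46 genes of the junction was described beside the members, with 1 probe per gene. It held agrin and Dok7, the adaptor of MuSK, the ErbB receptors and neuregulin, the dystrophin-associated proteins, synaptic laminins and their regulators. Of 38 genes kept, 14 were higher in cHF+F+ROSI, with a median log2 difference of -0.02. At an unadjusted p of up to 0.05, 1 was higher and 3 were lower, a share set against the 10.4% over all probes, and none passed the adjusted p. The lower ones were Wnt11, a secreted Wnt ligand, at -0.20 ± 0.07 (SE, adjusted p 0.336), Ncam1, a neural cell adhesion molecule also found on fibres without a nerve, at -0.17 ± 0.06 (adjusted p 0.363), and Etv4, an ETS transcription factor, at -0.12 ± 0.05 (adjusted p 0.422). The genes of the agrin signal gave -0.06 ± 0.11 for Agrn and 0.13 ± 0.10 for Dok7, with adjusted p of 0.875 and 0.663.

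Genes known to respond to loss of the nerve were taken as another list of 30, of which 28 were kept. Their log2 differences had a median of -0.08, with 10 higher in cHF+F+ROSI. At an unadjusted p of up to 0.05, 1 was higher and 5 were lower, where 5.38% of all kept probes were higher and 4.98% lower at that p, and none passed the adjusted p. No direction after loss of the nerve was set for any gene of the list, so the median and counts describe this diet comparison only. Sh3kbp1, an adaptor protein of receptor endocytosis, was the higher one at 0.36 ± 0.11 (SE, adjusted p 0.231). Gadd45g, a stress-responsive gene, was at -0.50 ± 0.17 (adjusted p 0.312), and Igfbp6, a binding protein of insulin-like growth factors, was at -0.22 ± 0.08 (adjusted p 0.339). Ncam1 was common to both lists. Ankrd1, a titin-associated protein, and Sln, sarcolipin, a regulator of the calcium pump, were also lower at -0.92 ± 0.38 (adjusted p 0.419) and -0.60 ± 0.28 (adjusted p 0.481), with exact permutation p of 0.0547 and 0.0813. Myog, the myogenic factor that drives receptor genes in muscle without a nerve, was at -0.30 ± 0.18 (adjusted p 0.568), and Myod1 at -0.17 ± 0.15 (adjusted p 0.712).

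Marker genes of other cells in the muscle were read from the same fit, and none passed the adjusted p. The 9 kept slow fibre genes had a median log2 difference of -0.42, with 1 higher, and none reached an unadjusted p of 0.05. Their mean log2 ratio was -2.35 in cHF+F+ROSI replicate 2, against -0.60 in the next lowest mouse of that group. How far the -0.42 rests on that mouse was not tested. All 10 kept Schwann cell genes were lower, with a median of -0.14, and none reached that p. Their mean log2 ratio was 0.83 in cHF+ROSI replicates 1 and 6 and 0.43 in replicate 2, against -0.04 in the next mouse. In cHF+F+ROSI it was 0.76 in replicate 4, against 0.25 in the next highest mouse. How far the -0.14 rests on these mice was not tested. The 4 endothelial genes were lower at an unadjusted p of up to 0.05, which 4.98% of all kept probes reached downwards. Their differences ran from -0.28 to -0.10, with Cdh5, the endothelial cadherin, at -0.19 ± 0.06 and an adjusted p of 0.245. The 7 adipocyte genes had a median of 0.37, with 5 higher, and none reached an unadjusted p of 0.05. The 4 of red blood cells had a median of 0.19, and none reached that p. Their mean log2 ratio was 0.94 in cHF+F+ROSI replicate 6, against -0.06 in the next highest mouse of that group. How far the 0.19 rests on that mouse was not tested. The 6 names of macrophages, of which 2 share 1 probe, had a median of -0.004, and the 3 of fibroblasts -0.05. The neuron list kept 1 gene, Tubb3, at -0.13, and the satellite cell list 1, Cdh15, at -0.08. Beyond the relation of the slow fibre mean to Chrna1, given next, the part of these in the members' values was not tested.

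Across mice, 6 relations of the brighter Chrna1 probe were tested with group means removed, each over 16 mice with 100000 permutations. The closest was with Chrnb1, at Pearson r = 0.60 (permutation p = 0.0318, adjusted 0.184) and Spearman rho = 0.50 (permutation p = 0.0812, adjusted 0.244). It was 0.21 within cHF+F+ROSI and 0.75 within cHF+ROSI, and 0.67 without the 2 mice farthest from the Chrna1 median. Musk followed at r = 0.46 and rho = 0.46 (permutation p = 0.0615 and 0.0629, adjusted 0.184 and 0.244). Its r was 0.26 within cHF+F+ROSI, 0.70 within cHF+ROSI and 0.47 without the 2 farthest mice. Rapsn had r = 0.41 and rho = 0.36 (permutation p = 0.117 and 0.199, adjusted 0.234 and 0.398), which fell to r = 0.20 without those mice. Chrnd had r = 0.34 and rho = 0.12 (permutation p = 0.259 and 0.687, adjusted 0.388 and 0.824). Myog had r = 0.16 and rho = 0.06 (permutation p = 0.624 and 0.831, unchanged by adjustment). The slow fibre mean had r = 0.17 and rho = 0.19 (permutation p = 0.537 and 0.52, adjusted 0.624 and 0.78). Without the 2 farthest mice these 3 had r of 0.33, 0.24 and 0.02. No relation passed after adjustment. With the dimmer Chrna1 probe, described without a test, r was 0.56 for Chrnb1, 0.37 for Rapsn and 0.01 for Musk.

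The probes whose values followed a member most closely, as a description over 16 mice that share their arrays and normalization, were on neither of the junction lists. Musk was followed by Mras, Tfcp2l1 and Rasl11b, at r of 0.86, 0.86 and 0.85, and Rapsn by Scrn2 and Gpatch11, at 0.88 each. The closest were Unc119 to Chrna1 (0.78), Rnf150 to Chrnb1 (0.79), Setd7 to Chrne (0.82), Sipa1l1 to Lrp4 (0.84) and Zmiz2 to Ache (0.82). After these came Dcaf10 and Dalrd3 for Chrna1, Acp2 and Trmt6 for Chrnb1, 4833439L19Rik for Chrne, Abcb9 and Nf2 for Lrp4, and Rnpep and Ubp1 for Ache, at r from 0.76 to 0.82. Of these, Tfcp2l1, a CP2-family transcription factor, differed between the diets by 0.56 on the log2 scale, with an adjusted p of 0.167, and no other of these named genes reached an unadjusted p of 0.05.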

How the data were processed

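Gene expression in gastrocnemius muscle was measured on 16 two-colour Agilent whole-genome arrays, 1 per mouse and 8 per diet, with the mouse's RNA in Cy5 and the equimolar reference pool in Cy3 on every array, without dye swap. The authors deposited the scanner intensities of each array, extracted with Agilent Feature Extraction (version 10.5.1.1 in the file headers and 10.5.5.1 in the submitters' processing notes), and a table of log2 values that they had normalized and filtered. The additive constant of each array in that table is not known, so only differences were used. Groups were taken from the sample labels. The mice were housed in pairs, and the labels do not say which shared a cage. The cHF+ROSI RNA was also labelled for a companion study, whose arrays were not used here.

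Background was corrected with normexp (offset 50) and ratios were loess-normalized within each array, outlier spots were left out, and replicate spots of a probe were averaged. A plain normexp fit on all spots had been set out first. After the data were seen, spots whose signal lay under their local background (at most 22 per array) were left out of the array concerned, because on 5 arrays they raised the median corrected Cy5 intensity to between 374.2 and 1237, against 151.9 to 176.5 on the other 11. Without these spots it was 112 to 177 on all arrays. The diets were compared with limma 3.58.1 in R 4.3.3 over all 19398 kept probes, with Benjamini-Hochberg adjustment, and the script was tested on simulated data. Intervals are 95%. The exact permutation test of 8 against 8 mice can give 0.000155 at the smallest.

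The members and all gene lists were chosen with earlier results of these data known, so counts over them are descriptions. Named from the 2 wider lists were genes past the adjusted p, the 4 of each with the smallest p, and Myog and Myod1. Agrn, Dok7, Ankrd1, Sln and the cell markers were named after their values were seen. For each kept member gene, the 3 genes with the highest correlation were named. A few genes that these rules pick are not reported here. Gene names are those of the array's files. Of the 41174 probes, 24375 were renamed or matched through RefSeq accessions. Probe coordinates are those of the files (mm8), and promoters come from RefSeq on GRCm38.p6. Alternatives were other background corrections, signals, normalizations and filters, Cy5 alone, the deposited table, slide or replicate number as a block, array weights, the methods' t-test and each array left out. Same-numbered mice of the 2 groups were not paired: with group means removed, 2 of 8 pairs correlated over 0.1.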

Additional observations from a re-analysis of the deposited data

Results flagged for a closer look

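Within groups of 8 mice, 32 sets of values were examined for a mouse far from its group, and 3 were found, where chance gives about 1.6. On the dimmer Chrna1 probe, cHF+F+ROSI replicate 5 had a log2 ratio of 0.51, against 0.30 in the next mouse. Without it the log2 difference of that probe was 0.15, the lowest value with any 1 array left out, with an unadjusted p of up to 0.0086 over all of these. The mean of the wider junction list was -0.11 in cHF+ROSI replicate 7, against -0.01 in the next lowest mouse of that group. The mean of the slow fibre genes was -2.35 in cHF+F+ROSI replicate 2, against -0.60 in the next lowest.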

How the results depend on the processing

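No member probe passed the adjusted p of 0.05 under any alternative, and Chrnb1, Chrnd, the brighter Chrne probe, Musk, Rapsn, Ache and the dimmer Chrna1 probe kept their direction in all. The 2 members at an unadjusted p of up to 0.05 became 1 with normexp on all spots (0.0626 for Musk), with slide as a block, with the replicate block (0.0885 for Musk) and with the methods' t-test. In Cy5 alone the 2 were Musk and the brighter Chrne probe. There were 0 with median centring and in the deposited table, and 1 to 2 with 1 array left out. There were 3 with array weights, which added Chrnb1, lower by -0.14 with an unadjusted p of 0.0228. Leaving out cHF+ROSI replicate 2 or 5, or cHF+F+ROSI replicate 3, 6 or 8, gave 1. The dimmer Chrna1 probe reached that p in each of the 16 fits with an array left out (log2 differences from 0.15 to 0.21), and Musk did so in 7 of 16 (0.15 to 0.22). In Musk's place, Chrnb1 was called, lower, without cHF+ROSI replicate 6 or 7 or cHF+F+ROSI replicate 7 (unadjusted p 0.0143, 0.0483 and 0.0434), and the brighter Chrne probe, higher, without cHF+ROSI replicate 8 (0.0188). The brighter Chrna1 probe became 0.013 in Cy5 alone. The dimmer Chrne probe became -0.035 in the deposited table and -0.0047 with array weights. The brighter Chrng probe became 0.018 with normexp on all spots and 0.0034 with mean signals, and ranged from -0.056 to 0.0047 with 1 array left out. The dimmer Chrng probe ranged from -0.23 to 0.014 so. Lrp4 became 0.03 with normexp on all spots and 9e-04 with both arrays that stood apart left out, and ranged from -0.072 to 0.018 with 1 array left out.

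The 16 probes at an adjusted p under 0.05 became 3 with normexp on all spots, 25 with mean signals, 9 with median centring, 8 in Cy5 alone, 10 in the deposited table, 6 with the replicate block, 7 with the methods' t-test, 144 with array weights and 33 with both arrays that stood apart left out. They ranged from 5 to 24 with 1 array left out, and were 10 or fewer without cHF+ROSI replicate 3, 4 or 5 or cHF+F+ROSI replicate 3, 5 or 8 and highest without cHF+ROSI replicate 7 or cHF+F+ROSI replicate 2. The normexp fit on all spots and the fit without both arrays were chosen after seeing the data. The cause of these shifts was not tested. Signal was close to background for Chrnd, at 2.89 times, and for both Chrng probes, at 3.25 and 3.08 times.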
